A study of Mus musculus with 15 samples.

Results

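Mouse lung tumours that had lost Rb and p53 were compared by how strongly they expressed genes of the dividing cell. Among the 10 Rb/p53 tumours, a score was taken as the mean log2 expression of 5 cell cycle genes (Mki67, Top2a, Cdk1, Plk1 and Aurka), each read from its brightest probe set over all 15 arrays. The 4 tumours with the highest score were set against the 4 with the lowest, so 8 of 15 samples entered the comparison. The rule also names a cyclin B gene, which was not used here because no probe set carried its symbol alone. The groups were therefore chosen by measured values of the same arrays and not by a label.

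All 10 Rb/p53 tumours carried the genotype Rb Δ/Δ; p53 Δ/Δ and came from mice given an adenovirus expressing Cre recombinase through the nose, then aged for 8 to 12 months. Cre deletes the floxed alleles in whichever airway or lung cells the virus enters, so a dissected tumour holds recombined tumour cells together with lung tissue and blood cells that keep both genes. Samples outside the comparison served as references. They were 3 Rb/p53/p130 tumours, which also lack p130 (p130 Δ/Δ), started in the same way and taken at 6 months, and 2 tumour-free lungs of wild-type adult mice. RNA of each sample was amplified in a pair of rounds and measured on an Affymetrix mouse whole-genome array. The study asked how closely these tumours resemble human small cell lung cancer, an aggressive neuroendocrine cancer, and no human sample is used here. Nothing in the labels ties each array to a mouse of its own, so the p-values describe spread between these samples, which may be partly technical.

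Rb holds back the E2F factors that switch on S phase genes. Mitotic genes come on later in the cycle, when MYB, FOXM1 and the MuvB core act at their promoters. Loss of Rb and p53 is a hallmark of small cell lung cancer, and the score reads how much RNA of this late programme a sample holds. It does not measure growth rate.

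The score was 12.03 in tumour 7, 11.73 in tumour 9, 11.71 in tumour 8 and 11.55 in tumour 4, the high-score tumours. It was 11.18 in tumour 3, 11.06 in tumour 5, 11.05 in tumour 10 and 11.04 in tumour 6, the low-score tumours. Tumours 1 (11.34) and 2 (11.33) lay between and were left out. The tumour just inside the high group stood 0.211 above the next, and the one just inside the low group stood 0.148 below its neighbour. The mean difference was 0.67 on the log2 scale, a 1.59-fold difference on the linear scale. The low-score tumours still lay 4.24 above normal lung, whose values were 6.75 and 6.92, so every tumour was rich in cycling cell RNA. The Rb/p53/p130 tumours scored 11.45, 11.53 and 11.28, within the range of the Rb/p53 tumours. These values chose the groups and were not tested.

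Each of the 5 genes was higher on average in the high-score tumours, as the selection on them fixes. The difference was 0.78 for the proliferation antigen Mki67, 0.62 for the topoisomerase Top2a, 0.43 for the kinase Cdk1, 0.85 for the mitotic kinase Plk1 and 0.66 for the spindle pole kinase Aurka. Plk1 overlapped between the groups, with tumour 3 at 9.88 and tumour 4 at 9.84, whereas the other genes did not. The same 8 tumours were chosen in the same groups when any 1 of the 5 genes was dropped and when all probe sets of each gene were averaged.

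**Figure D1:**
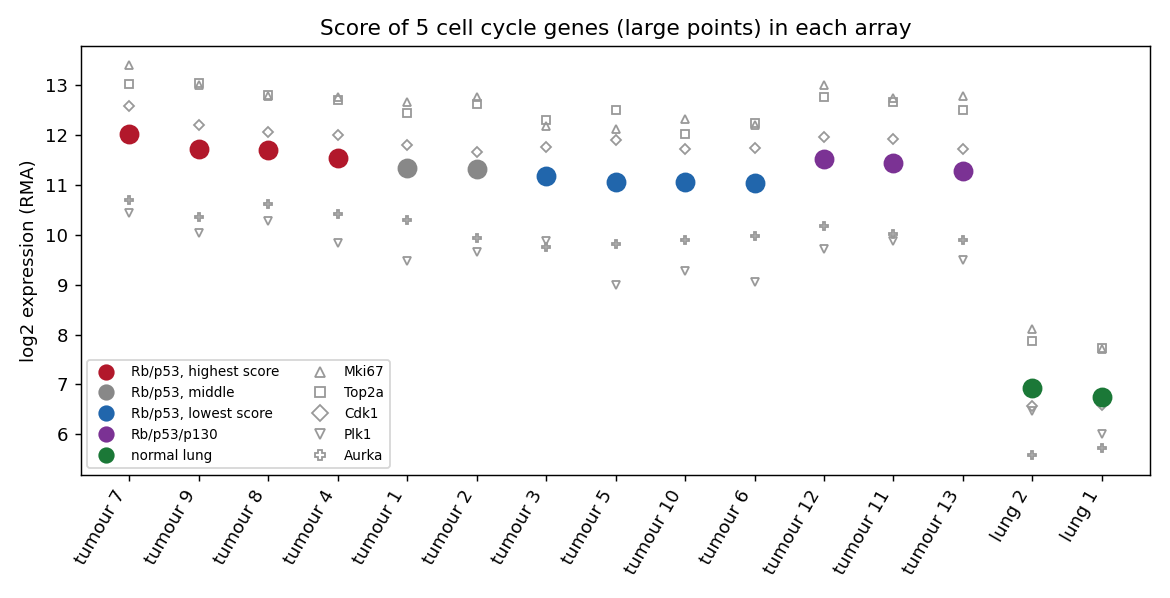
Score of each array (large points, mean log2 of 5 genes) and the log2 level of each gene (small open symbols), with Rb/p53 tumours ordered by score, then Rb/p53/p130 tumours and normal lungs. The 4 highest-score tumours lie between 11.55 and 12.03 and the 4 lowest between 11.04 and 11.18, while the lungs lie at 6.75 and 6.92.

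RNA quality was close in most of the 8 arrays. For the Gapdh control probe sets, the 3' minus 5' signal, which grows as RNA degrades, averaged 0.00 ± 0.05 (SD, n = 4) in the high-score and 0.08 ± 0.19 (SD, n = 4) in the low-score tumours. Tumour 3, of the low-score group, stood apart at 0.36, and at 1.24 by the actin controls against 0.50 to 0.71 in the other 7. The normal lungs were higher by Gapdh (0.88 and 0.72) and were at 1.99 and 1.33 by actin. Tumours 1 and 2 were at 1.35 and 1.12 by actin. Levels in lung were thus read from RNA with a larger 3' bias, and the effect of this on them was not tested. Liver markers, seen in some tumours of the series, overlapped between the groups, and the hepatocyte list averaged 5.58 to 6.29 in the high-score and 5.73 to 6.22 in the low-score tumours.

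Across all other genes, 732 of 18188 (4.02%) passed the test between the groups (limma, Benjamini-Hochberg adjusted p under 0.05). Of these, 160 (0.88%) rose and 572 (3.14%) fell in the high-score tumours. At least 1 on the log2 scale separated 56 of those that rose and 368 of those that fell, and the median difference over all genes was -0.03. The arrays of the groups did not overlap in 2687 genes (14.8%), among them all 732. In normal lung the genes that fell were mostly at high levels: 530 of 572 were higher in the lungs than in the Rb/p53/p130 tumours, against 9 of the 160 that rose and 51.7% of all genes. Both kinds of array lie outside the comparison. The mean of tumours 1 and 2 lay between the group means for 469 of the 572 and 138 of the 160, against 35.7% of all genes. The called genes were selected for group means that lie apart, which leaves more room for a value between them. The higher shares are therefore partly fixed by that selection and are not separate support.

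The count rested on few arrays. It was 42 (1 higher and 41 lower) without tumour 6 and 51 (0 higher, 51 lower) without tumour 10, both low-score tumours. It was 347 without tumour 3, 322 without tumour 7, 296 without tumour 9, 463 without tumour 8, 515 without tumour 5 and 642 without tumour 4. By an exact rank-sum test, whose two-sided p cannot go below 0.0286 with 4 against 4, 0 genes passed after adjustment and 2687 had an unadjusted p under 0.05.

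**Figure D2:**
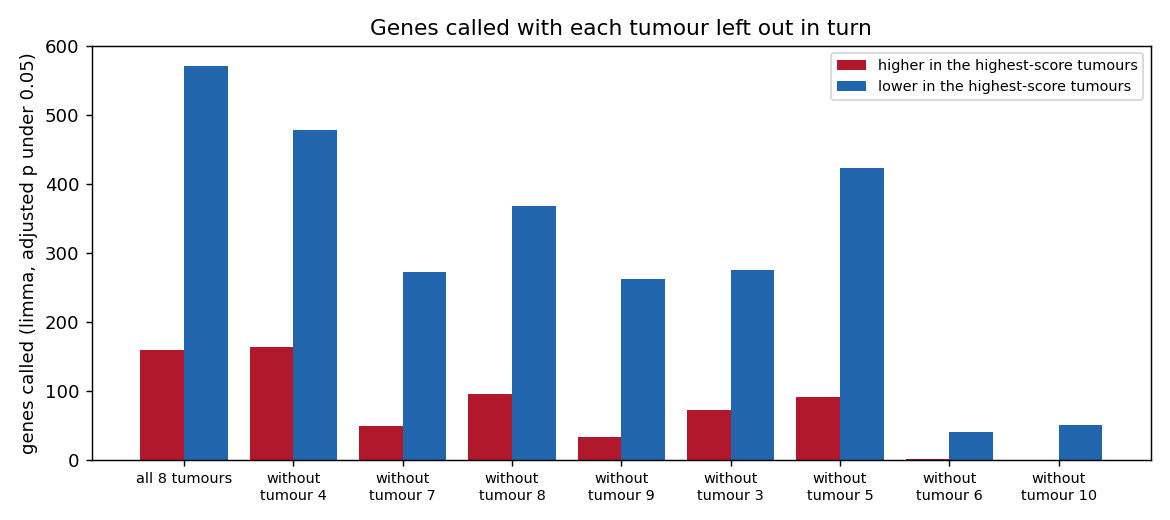
Number of genes called higher (red) or lower (blue) in the highest-score tumours by limma at an adjusted p under 0.05, for all 8 tumours and with each left out in turn. The counts are 160 and 572 for all 8 and fall to 1 and 41 without tumour 6 and to 0 and 51 without tumour 10.

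Genes of mitosis were higher together. In 5 lists of mitosis genes, 29 of 101 rose, 0 fell and 96 had a positive difference, with a median of 0.70 against -0.03 over all genes. These genes are made in the same phase of the cycle as the score genes, so their counts describe the split and are not independent evidence of it. Without tumour 6 or without tumour 10 none of the 101 passed, although the median stayed between 0.62 and 0.78 whichever tumour was left out, and 17 passed with the Gapdh control difference as a covariate. The 5 lists averaged 10.77 in tumour 7, 10.52 in tumour 8, 10.48 in tumour 9 and 10.30 in tumour 4. In the low-score tumours 3, 5, 6 and 10 they averaged 10.03, 9.85, 9.76 and 9.75, and tumours 1 and 2 were at 10.35 and 10.29. The groups did not overlap in this average, and normal lung lay far below both at 7.22 and 7.26.

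The kinetochore and spindle checkpoint list stood highest, with 11 of 24 genes called higher and a median of 0.87. Kinetochores join chromosomes to spindle fibres, and the checkpoint delays anaphase until all are joined. Those that rose were Bub1 and Bub1b, kinases of the checkpoint, the centromeric histone Cenpa, the kinetochore proteins Cenpe, Cenpf, Cenph, Ndc80, Knl1 and Ska1, and the cohesion protectors Sgo1 and Sgo2a. Ska1, which helps kinetochores hold the fibre ends, was at 10.41, 9.36, 9.92 and 9.22 in tumours 7, 9, 8 and 4. It was at 8.18, 8.50, 8.03 and 8.44 in tumours 3, 5, 10 and 6, a difference of 1.44 ± 0.26 (SE, limma adjusted p = 0.0312). The groups were apart, and tumour 7 stood above all other tumours. The size depends on the probe set: the other 2 probe sets of Ska1 differed by 1.08 ± 0.18 and 0.18 ± 0.18 (limma adjusted p = 0.0261 and 0.640). Cenpf differed by 1.25 ± 0.23 and Sgo2a by 1.25 ± 0.17 (SE), and no other probe set of Cenpf was called.

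Of the spindle, kinesin and cytokinesis list, 11 of 29 rose (median 0.71). Kif11, the motor that pushes spindle poles apart, was at 10.62, 10.39, 10.17 and 10.00 in tumours 7, 9, 8 and 4 and at 9.30, 9.12, 8.81 and 8.45 in tumours 3, 5, 10 and 6. All high-score tumours lay above all low-score tumours, by 1.38 ± 0.21 on average (SE, limma adjusted p = 0.0205), and tumours 1 (9.86) and 2 (9.78) fell in the gap. Both other probe sets of Kif11 were called in the same direction. The motors Kif18a, Kif20a, Kif20b, Kif23 and Kifc1 rose, as did Tpx2, Nusap1, Hmmr and Tacc3 of the spindle and Ect2 of the dividing furrow. Kif20b differed by 1.16 ± 0.15 and Tacc3 by 1.09 ± 0.22 (SE), and no other probe set of Tacc3 was called.

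Fewer members passed in the other mitosis lists. Of condensin and cohesin genes, which fold and tie sister chromatids, 3 of 15 rose (median 0.53). Esco2, an acetyltransferase that locks cohesin during replication, was at 8.71 to 9.53 in the high-score and 7.20 to 8.03 in the low-score tumours, with no overlap. Its difference was 1.57 ± 0.23 (SE, limma adjusted p = 0.0198), and the condensin subunits Ncapg (1.19 ± 0.22) and Smc2 (0.86 ± 0.17) were the others. Of the mitotic entry list, 2 of 18 rose (median 0.66): Ccnf, the substrate receptor cyclin F, and Lin9, a subunit of MuvB. Lin9 lost its call in each of the 8 fits that left out a tumour, and its other probe set was not called. Ccnf was at 9.14, 9.28, 9.56 and 9.08 in tumours 7, 9, 8 and 4 and at 8.11 to 8.45 in the low-score tumours. Of the anaphase-promoting complex list, 2 of 15 rose (median 0.34). They were Ube2c, the enzyme that primes ubiquitin chains for the complex (0.79 ± 0.13), and its inhibitor Fbxo5 (0.78 ± 0.16).

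Promoters of mitotic genes often carry a cell cycle homology region (CHR), the element bound by MuvB complexes, and CCAAT boxes, bound by NF-Y. The CHR letters TTTGAA and the CCAAT letters were searched on both strands (TTCAAA and ATTGG on the other) in the 100 bases before the RefSeq start of each gene (assembly GRCm38.p6). CHR letters stood in 521 of 14447 promoters of tested genes (3.61%), in 12 of 135 of genes that rose (8.89%), in 27 of 435 of genes that fell (6.21%) and in 14 of 80 of the mitosis lists (17.5%). CCAAT letters stood in 21.7% of all promoters, 43.0% of those that rose, 19.8% of those that fell and 47.5% of the mitosis lists. These shares are descriptions of letters and not of bound factors. Of 24 mitosis genes that rose and have a promoter in the RefSeq table, 4 held CHR letters, which begin 14 (Ccnf), 19 (Kif11), 30 (Ncapg) and 29 (Ube2c) bases before the start. Their 120 bases before the start are given from 5′ to 3′ on the gene's strand, with CHR and CCAAT letters in capitals, to show how close the CHR lies to the start and where CCAAT letters accompany it. The CCAAT letters of Ccnf lie beyond the 100 bases that were counted, so Kif11 and Ube2c are the 2 counted with both. They lie at chr17:24251410-24251529 (minus strand), chr19:37376262-37376381 (plus), chr5:45669805-45669924 (plus) and chr2:164769809-164769928 (plus).
Ccnf: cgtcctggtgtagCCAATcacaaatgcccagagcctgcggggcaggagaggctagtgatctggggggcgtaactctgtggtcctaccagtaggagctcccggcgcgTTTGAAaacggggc
Kif11: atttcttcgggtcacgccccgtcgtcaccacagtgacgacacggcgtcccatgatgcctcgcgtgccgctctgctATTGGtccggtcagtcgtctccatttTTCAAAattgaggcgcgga
Ncapg: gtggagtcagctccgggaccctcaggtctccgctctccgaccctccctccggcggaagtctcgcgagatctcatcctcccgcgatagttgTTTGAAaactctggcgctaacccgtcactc
Ube2c: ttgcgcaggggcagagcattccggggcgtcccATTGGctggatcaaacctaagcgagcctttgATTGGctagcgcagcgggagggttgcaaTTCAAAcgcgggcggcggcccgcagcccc

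DNA replication genes act before mitosis. Across 4 lists of replication, chromatin and repair, 5 of 81 rose and 0 fell, with a median of 0.42 and 75 positive differences. Of all genes, 0.88% rose. The difference between these 4 lists and those of mitosis was not tested. The 5 were Uhrf1, which carries DNA methylation through replication (1.13 ± 0.22), H2ax and the histone chaperone Nasp, and the helicases Blm and Brip1 of DNA repair. None of the 5 was called without tumour 6 or without tumour 10. Brip1 lost its call in each of the 8 fits that left out a tumour, and no other probe set of Nasp was called. Of 23 licensing genes 0 passed in limma, though 5 were called higher with the score as a continuous covariate. The helicase subunit Mcm2 differed by 0.50 ± 0.20 (adjusted p = 0.214), Mcm6 by 0.26 ± 0.19 and the sliding clamp Pcna by 0.08 ± 0.13 (SE). In the fit with the continuous score Mcm2 was called (limma adjusted p = 0.0454), and Mcm6 and Pcna were not.

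**Figure D3:**
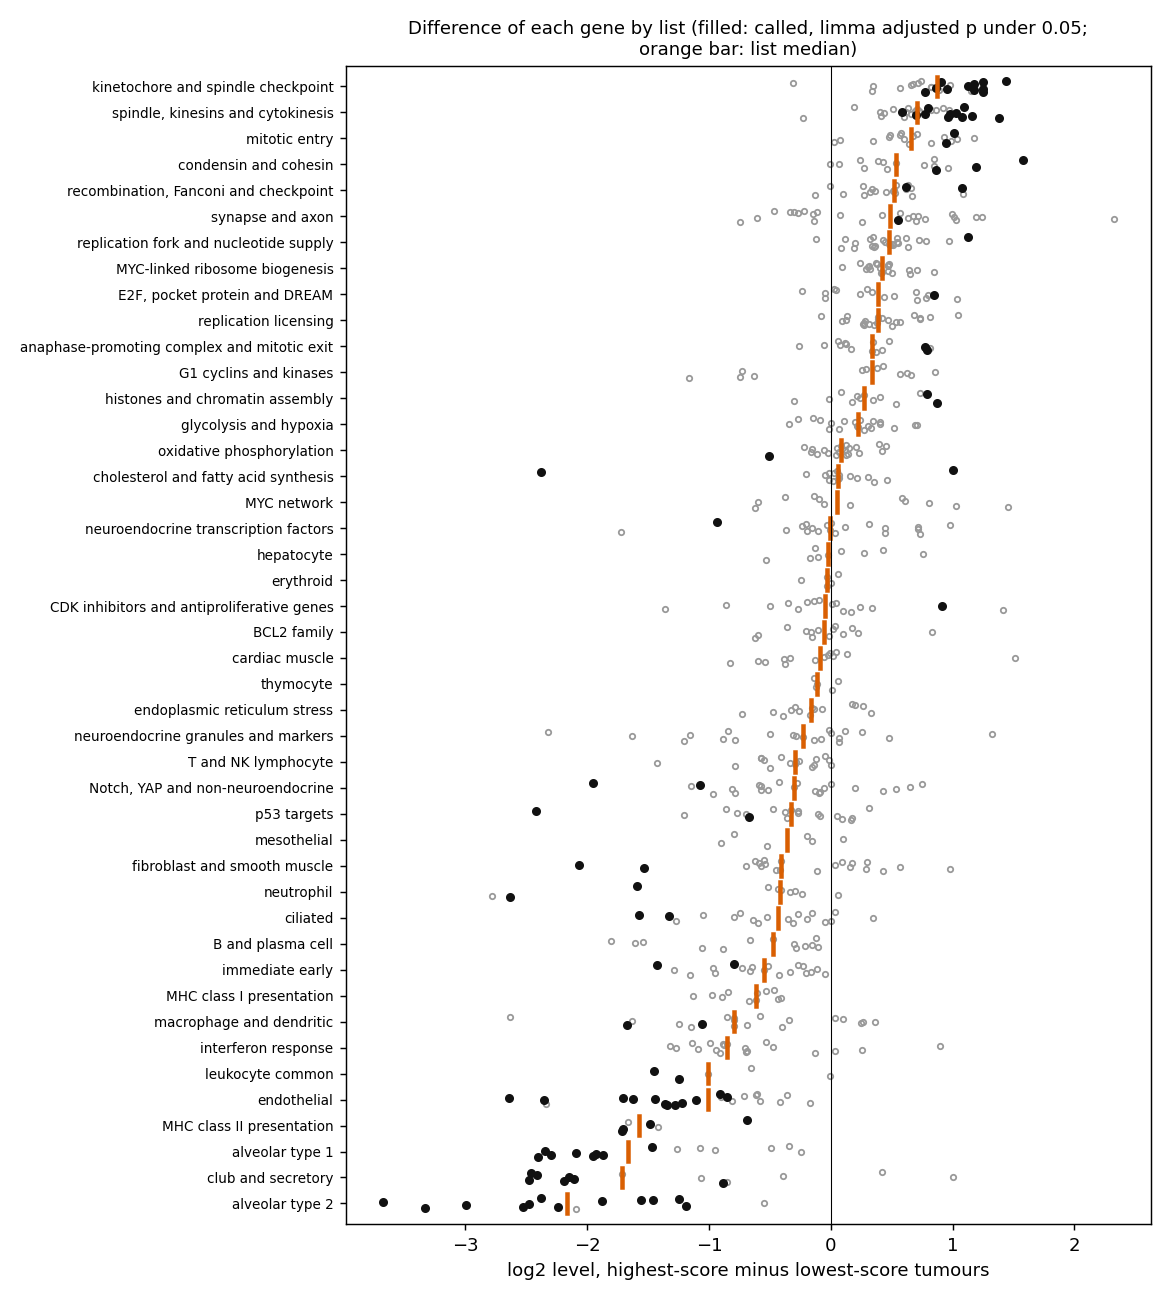
Difference in log2 level between highest-score and lowest-score tumours for each gene (points, filled where called by limma at an adjusted p under 0.05) in 44 lists, ordered by the list median (orange bar). Kinetochore genes stand at the top with a median of 0.87 and alveolar type 2 genes at the bottom with a median of -2.16.

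Of 44 genes in 3 lists of cell cycle regulators, 2 passed (4.55%). Both rose, where 0.88% of all genes rose and 4.02% passed either way. The share rests on 2 genes and was not tested against these. In the list of E2F, pocket protein and DREAM genes 1 of 16 rose, the repressor E2f7 (0.85 ± 0.15, limma adjusted p = 0.0312). E2f3 differed by 0.78 ± 0.19 (adjusted p = 0.0681), Mybl2 by 1.04 ± 0.32 (adjusted p = 0.123) and Foxm1 by 0.60 ± 0.23 (adjusted p = 0.195), and none of these passed by its brightest probe set. E2f3, Mybl2 and Foxm1 were called by these probe sets with the score as a continuous covariate (limma adjusted p = 0.0411, 0.0222 and 0.0309). The other probe set of Mybl2 was called higher between the groups (1.39 ± 0.25, limma adjusted p = 0.0315). E2f2 differed by 1.04 ± 0.38, E2f8 by 0.80 ± 0.37, the pocket protein genes Rbl1 by 0.34 ± 0.16 and Rbl2 by -0.24 ± 0.17, and E2f1 by 0.70 ± 0.59. Tumour 8 alone held E2f1 at 11.73, where the other high-score tumours lay at 8.80 to 9.13 and the low-score tumours at 8.80 to 9.23. The high mean of E2f1 thus rests on 1 tumour.

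Of 12 G1 cyclins and kinases, 0 passed in limma. The differences were 0.66 ± 0.22 for Ccne1, 0.57 ± 0.25 for Ccne2, -0.75 ± 0.24 for Ccnd2 and -1.17 ± 0.27 for Ccnd1 (adjusted p = 0.0618). Cyclin D1 and D2 RNA was also high in normal lung (11.38 and 11.41 for Ccnd1). Of CDK inhibitors and antiproliferative genes, 1 of 16 rose, the phosphatase Cdkn3 (0.91 ± 0.16), whose RNA peaks with the mitotic genes. Cdkn1a, Cdkn1b, Cdkn2a and Cdkn2c differed by 0.17 ± 0.15, 0.10 ± 0.26, -0.27 ± 0.25 and 0.33 ± 0.40. Cdkn1c ran from 8.29 in tumour 4 to 12.28 in tumour 8 within the high-score group, wider than the whole low-score range of 8.22 to 9.94.

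MYC genes varied among the high-score tumours. Mycl was at 13.36 in tumour 9 and 13.16 in tumour 4 but at 10.39 in tumour 7 and 10.42 in tumour 8, and the low-score tumours ran from 9.39 to 11.86. Mycn was at 12.19 in tumour 7, 8.90 in tumour 8, 7.37 in tumour 9 and 6.11 in tumour 4, against 6.66 to 7.82 in the low-score tumours. Mycl and Mycn were thus each high in some and not in other tumours of the high-score group, while Myc lay at 7.07 to 7.78 there and at 7.54 to 8.12 in the low-score tumours. The differences were 1.02 ± 0.84 for Mycl, 1.45 ± 1.13 for Mycn and -0.62 ± 0.19 for Myc, and 0 of 12 genes of the MYC network passed in limma. Of 20 ribosome biogenesis genes linked to MYC, 0 passed in limma while all 20 had a positive difference (median 0.42). Nucleolin, Ncl, had the smallest p of that list, with 0.65 ± 0.14 (limma adjusted p = 0.0521) by its brightest probe set. Of the other 4 probe sets of Ncl, 2 were called higher (0.72 ± 0.12 and 0.67 ± 0.12).

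Of 67 genes in 3 lists of neuroendocrine and synapse genes, 2 passed (2.99%), near the 4.02% of all genes. Of 21 granule and marker genes 0 passed in limma (median -0.23), and their mean was 10.00 in tumour 7, 10.57 to 10.89 in the other high-score tumours and 10.61 to 11.27 in the low-score tumours. Chga of secretory granules differed by 0.07 ± 0.56, the Notch ligand Dll3 by 0.00 ± 0.27 and the factor Insm1 by 0.73 ± 0.20 (limma adjusted p = 0.0855). Pcsk1, a prohormone convertase, was at 10.06 in tumour 7, 11.08 to 11.27 in the rest of the high-score group and 11.68 to 12.31 in the low-score group (difference -1.16 ± 0.28, adjusted p = 0.0659). Of 20 neuroendocrine transcription factors and their repressors, 1 fell, Rest, which silences neuronal genes in other cell types (-0.93 ± 0.13, adjusted p = 0.0172). Rest was high in normal lung, at 8.81 and 9.13. With the score as a continuous covariate Pcsk1 was called (limma adjusted p = 0.00803) and Rest was not (adjusted p = 0.0768). Of 26 synapse and axon genes 1 rose, Dpysl5 (0.55 ± 0.12).

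Genes of the resident lung were lower in the high-score tumours. In 5 lists of alveolar, airway and endothelial genes, 41 of 81 fell, 0 rose and 76 had a negative difference, with a median of -1.22. The median stayed between -1.34 and -1.07 whichever tumour was left out, but 5 passed without tumour 6 and 7 without tumour 10, and 28 with the Gapdh control difference as a covariate. The 5 lists averaged 7.84, 8.48, 8.12 and 8.50 in tumours 7, 9, 8 and 4, and 9.53, 9.24, 9.61 and 9.63 in tumours 3, 5, 10 and 6. All high-score tumours lay below all low-score tumours, with tumours 1 (8.63) and 2 (8.55) between and normal lung at 11.64 and 11.87. In bulk samples fewer cells of a type and less RNA per cell cannot be told apart. The level of these lung genes and the score moved in opposite directions across the groups. With the mean of these lists as a covariate, chosen after seeing the data, 0 genes passed in limma (911 at an unadjusted p under 0.05) and the median of the mitosis genes was 0.03. The covariate does not overlap between the groups, so a faster cycle of the tumour cells and a smaller share of lung tissue cannot be told apart here.

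Surfactant-making alveolar type 2 cells had the lowest list median of the 44: 12 of 14 genes fell, with a median of -2.16. The surfactant protein Sftpa1 was at 9.74, 10.35, 7.86 and 10.28 in tumours 7, 9, 8 and 4 and at 13.25, 12.60, 12.62 and 13.09 in tumours 3, 5, 10 and 6. The low-score tumours lay between the high-score tumours and normal lung (14.22 and 14.54), and the difference was -3.33 ± 0.51 (SE, limma adjusted p = 0.0208). The lung chemokine Cxcl15 (-3.68 ± 0.62), the phosphate transporter Slc34a2 (-3.00 ± 0.41), Sftpb, Sftpd, the lipid transporter Abca3, Napsa, Etv5, Ctsh and the lipid desaturase Scd1 also fell, as did the near-identical lysozymes Lyz1 and Lyz2, whose probes may read both. Sftpc differed by -2.09 ± 0.47 without passing (adjusted p = 0.0536). The list averaged 9.51 to 10.73 in the high-score and 12.04 to 12.29 in the low-score tumours, so the latter were close to one another.

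Of alveolar type 1 genes, which line the gas exchange surface, 8 of 14 fell (median -1.67). Ager, the receptor that marks these cells, was at 9.81, 11.42, 10.61 and 10.39 in tumours 7, 9, 8 and 4 and at 12.59 to 13.41 in the low-score tumours. Clic5 differed by -2.35 ± 0.31 and the water channel Aqp5 by -2.29 ± 0.36. Of endothelial genes 12 of 22 fell (median -1.01), among them Pecam1, Cdh5 and Kdr, the defining junction and growth factor receptor genes. The tight junction gene Cldn5 was at 6.64, 7.45, 7.19 and 7.45 in tumours 7, 9, 8 and 4 and at 9.75, 9.24, 9.39 and 9.76 in tumours 3, 5, 10 and 6 (difference -2.35 ± 0.21, limma adjusted p = 0.00675). Cldn5 kept its call in each of the 8 fits that left out a tumour.

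Of club and secretory genes 7 of 13 fell (median -1.72), including the detoxifying oxidase Cyp2f2 (-2.48 ± 0.45), haptoglobin Hp (-2.46 ± 0.30) and the claudin Cldn10 (-2.41 ± 0.40). The club cell secretoglobin Scgb1a1 fell by 0.88 ± 0.12, yet it lay at 14.79 to 14.97 in the low-score tumours, near the 15.2 that is the highest value on any array, so its difference may be compressed. Of ciliated cell genes 2 of 18 fell, Fam183b and Tppp3 (median -0.44), where 3.14% of all genes fell. The defining factor Foxj1 differed by -0.60 ± 0.14 (limma adjusted p = 0.0618). Foxj1 lay at 7.39 or below in all 8 tumours, against 10.40 and 9.83 in lung.

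**Figure D4:**
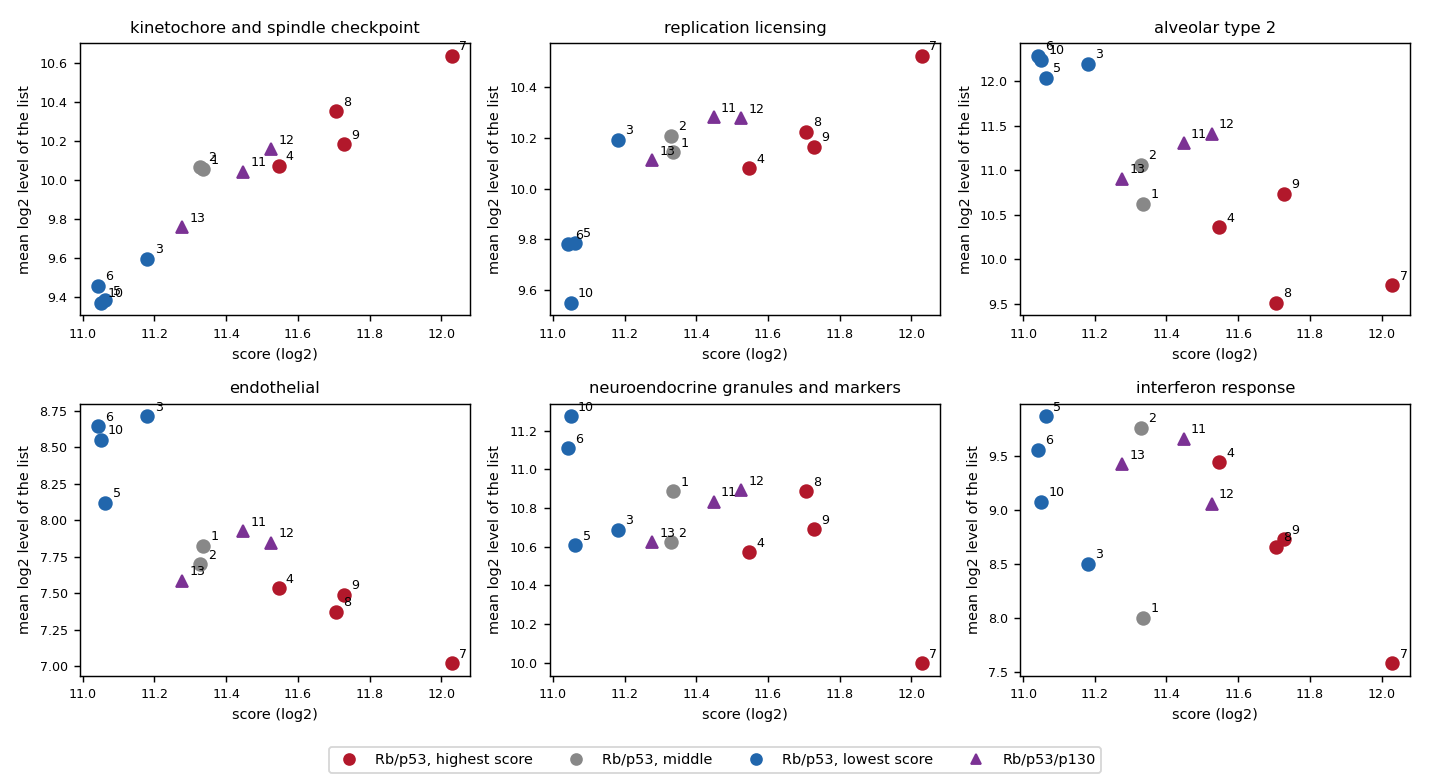
Mean log2 level of 6 lists (vertical axes) against the score (horizontal axes) in each tumour, with numbers giving the tumour and triangles the Rb/p53/p130 tumours. Kinetochore genes are higher and alveolar type 2 and endothelial genes lower in the highest-score tumours, while the other 3 lists overlap between the groups.

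Immune genes fell in part. Of the common leukocyte genes 2 of 5 fell, the phosphatase Ptprc (CD45, -1.25 ± 0.25, but -0.65 with adjusted p = 0.147 without probe sets _s, _x and _a) and the actin bundler Lcp1 (-1.45 ± 0.20). Of MHC class II genes 4 of 6 fell (median -1.58): H2-Aa, H2-Ab1, H2-DMa and their activator Ciita. H2-DMa was at 6.86, 7.46, 7.34 and 7.23 in tumours 7, 9, 8 and 4 and at 8.54, 8.64, 9.01 and 8.64 in tumours 3, 5, 10 and 6. The groups were apart by 1 or more, and the call held in each of the 8 fits that left out a tumour (adjusted p = 0.0104 in limma with all 8). The other probe sets of H2-DMa (1), H2-Ab1 (2) and Lcp1 (1) had the same sign but were not called. Of the 3 others of H2-Aa, 2 were called. Of MHC class I genes 0 of 11 passed in limma, with all 11 lower (median -0.61), and of 19 interferon response genes 0 passed (median -0.85). With the score as a continuous covariate, 4 of the 11 and 2 of the 19 were called lower. Interferon genes averaged 7.58 in tumour 7 and 9.44 in tumour 4, a spread within the high-score group that covers the low-score tumour 3 at 8.50.

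Of macrophage and dendritic genes 2 of 19 fell, the alveolar macrophage receptor Marco (-1.67 ± 0.28) and Itgax (-1.06 ± 0.22). In that list 5 differences were positive, and 3.14% of all genes fell. Itgax lost its call in each of the 8 fits that left out a tumour and with the score as a continuous covariate (limma adjusted p = 0.0503). Marco was at 10.04 in tumour 2, in the middle by score, above the 8.23 to 9.64 of the low-score tumours. It lost its call with the score as a continuous covariate (limma adjusted p = 0.247), and its other probe set was not called. Of neutrophil genes 2 of 10 fell, S100a8 and Lcn2. Lcn2, also made by lung epithelium, was at 9.40 to 9.96 in the high-score and 10.91 to 11.78 in the low-score tumours. Both lungs lay below the low-score tumours for Lcn2, at 9.28 and 10.54. Lcn2 kept its call in each of the 8 fits that left out a tumour and with the continuous score (limma adjusted p = 0.017). S100a8 was at 11.40 in tumour 2, above all low-score tumours (8.25 to 10.82), and lost its call with the continuous score (limma adjusted p = 0.160). Of 17 T and NK genes and 13 B and plasma genes 0 passed in limma, with differences of -0.16 ± 0.13 for Cd3e and -1.81 ± 0.48 for Jchain. Of fibroblast and smooth muscle genes 2 of 21 fell, Tcf21 (-2.06 ± 0.35) and Pdgfra (-1.53 ± 0.31), both of resident lung fibroblasts. They lost their calls with the score as a continuous covariate (limma adjusted p = 0.0625 and 0.142), and no other probe set of either was called. The collagen Col1a1 differed by 0.43 ± 0.45.

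Of all genes, 3.14% fell, the share to set beside each list of this paragraph. The Notch, YAP and non-neuroendocrine list held 2 of 23 genes that fell, the co-activator Wwtr1 (-1.07 ± 0.15) and the hyaluronan receptor Cd44 (-1.95 ± 0.24). Yap1 differed by -1.15 ± 0.28 (limma adjusted p = 0.0661), Notch1 by -0.96 ± 0.23 (adjusted p = 0.0611) and the Notch target Hes1 by -0.81 ± 0.29 (adjusted p = 0.178). All 5 stood higher in normal lung than in any of the 8 tumours save Cd44, which reached 11.62 in tumour 10 against 11.54 and 11.67 in lung. Of immediate early genes 2 of 19 fell, Klf4 (-1.43 ± 0.21) and Zfp36 (-0.80 ± 0.15), and all 19 differences were negative. Yet the list averaged 10.35 in tumour 2, in the middle by score, above the 8.90 to 9.59 of the low-score tumours. Zfp36 was at 10.67 in tumour 2 and lost its call with the score as a continuous covariate (limma adjusted p = 0.313). Of p53 targets 2 of 19 fell, Ccng1 (-0.67 ± 0.10) and the death receptor Eda2r (at least 4.68-fold). Both lost their calls with the score as a continuous covariate (limma adjusted p = 0.0878 and 0.144). Eda2r was at 4.23 and 4.70 in tumours 1 and 2, at or near background. The recombined tumour cells lack p53, and which cells gave these signals was not tested.

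Among metabolic lists, 0 of 21 glycolysis and hypoxia genes passed in limma (median 0.22). Of 22 oxidative phosphorylation genes 1 fell, Ndufa1 of complex I (-0.50 ± 0.10), while 15 of the 22 differences were positive. Ndufa1 lost its call in each of the 8 fits that left out a tumour. Across all genes, 0.88% rose and 3.14% fell. In lipid synthesis 1 of 17 rose, the elongase Elovl6 (1.00 ± 0.18), and 1 fell, Scd1 (-2.38 ± 0.30). Scd1 stands in the alveolar type 2 list as well and was at 13.01 and 14.18 in lung.

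The 12 genes with the largest rise mixed mitotic and other genes. Esco2, Ska1 and Kif11 were joined by Kifc5b, a near copy of Kifc1 whose probes may read both. Sh3gl3, a membrane-bending endophilin, led with 11.08, 11.18, 10.63 and 10.45 in tumours 7, 9, 8 and 4 and 7.97, 9.31, 9.22 and 9.07 in tumours 3, 5, 10 and 6 (1.94 ± 0.31, limma adjusted p = 0.0230). The groups were apart by more than 1, though tumour 2, in the middle by score, was at 10.91. Lmo1, a LIM-domain cofactor and oncogene, was at 10.67 in tumour 7 and 9.33 to 9.52 in the rest of the high-score group, against 7.87 to 8.40 (1.67 ± 0.29). Kctd15 (1.75 ± 0.36), the sialic acid lyase Npl (1.67 ± 0.33), the G protein regulator Rgs5 (1.46 ± 0.29), vitronectin Vtn (1.41 ± 0.30), Tmeff1 (1.38 ± 0.18) and the noncoding RNA Crnde (1.37 ± 0.29) completed them. Npl was also at 8.89 and 7.47 in normal lung, and Kctd15 at 8.39 and 8.54. For 5 against 5 tumours Sh3gl3, Kctd15, Lmo1, Vtn and Crnde differed by 1.27, 1.16, 1.00, 0.91 and 0.83 and were not called. None of the 12 kept its call in each of the 8 fits that left out a tumour, and Npl lost it in all 8.

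The 12 largest falls held genes that were high in lung and 2, Tcfl5 and Tafa1, for which both lungs lay below all 4 low-score tumours. Hc (complement C5) was at 5.68, 8.33, 5.13 and 7.98 in tumours 7, 9, 8 and 4 and at 10.40 to 11.16 in the low-score tumours (-3.99 ± 0.69), with lung at 12.40 and 13.09. The cytokine Il33 (-3.12 ± 0.62), the cholecystokinin receptor Cckar (-3.38 ± 0.42), the peptidase Mme (-2.84 ± 0.48) and the collagen processing enhancer Pcolce2 (-2.86 ± 0.36) were likewise highest in lung. Chil1, a chitinase-like protein, fell by 2.90 ± 0.30 and was at 9.33 and 10.99 in lung against 10.68 to 11.37 in the low-score tumours. Trim34a fell by 2.87 ± 0.36 by its brightest probe set, whereas its other probe set differed by 0.22, so its direction depends on the probe set.

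Tcfl5, a basic helix-loop-helix factor best known from the testis, had the largest fitted fall. It was at 4.89, 4.18, 4.28 and 4.54 in tumours 7, 9, 8 and 4 and at 9.54, 7.43, 9.94 and 7.82 in tumours 3, 5, 10 and 6 (-4.21 ± 0.54, limma adjusted p = 0.0167). The high-score values lie below 5.05, the highest lower quartile of any array, and are not shown to be above background. Set at that floor, the high-score tumours were at least 12.4-fold lower, a log2 bound of -3.63 that is smaller than the fitted fall of Hc. Tumour 1 was at 11.32 and tumour 2 at 4.90, so the middle tumours took both states, and the lungs were at 4.99 and 4.35. The Rb/p53/p130 tumours were low as well, at 4.41 to 4.63. Tafa1, a secreted neuronal protein, was at 4.96, 6.25, 5.54 and 6.37 in tumours 7, 9, 8 and 4 and at 9.16, 8.65, 9.31 and 8.91 in tumours 3, 5, 10 and 6 (-3.23 ± 0.31, adjusted p = 0.00714). Tumour 1 was at 9.56 and tumour 2 at 6.13, the Rb/p53/p130 tumours were at 8.16 to 9.54, and the lungs at 5.42 and 5.48. Both genes were thus high in the low-score tumours and low in lung, unlike most genes that fell. Tcfl5, Tafa1 and Chil1 kept their calls in each of the 8 fits that left out a tumour, but not under every other choice of tumours. For 5 against 5 tumours, which adds tumours 1 and 2, Tcfl5 differed by -2.08 (limma adjusted p = 0.567) and Tafa1 by -1.90 (adjusted p = 0.357). Tcfl5 also lost its call for 3 against 3 tumours (adjusted p = 0.0577) and with the score as a continuous covariate (adjusted p = 0.109), and Chil1 for 3 against 3 (adjusted p = 0.0503).

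**Figure D5:**
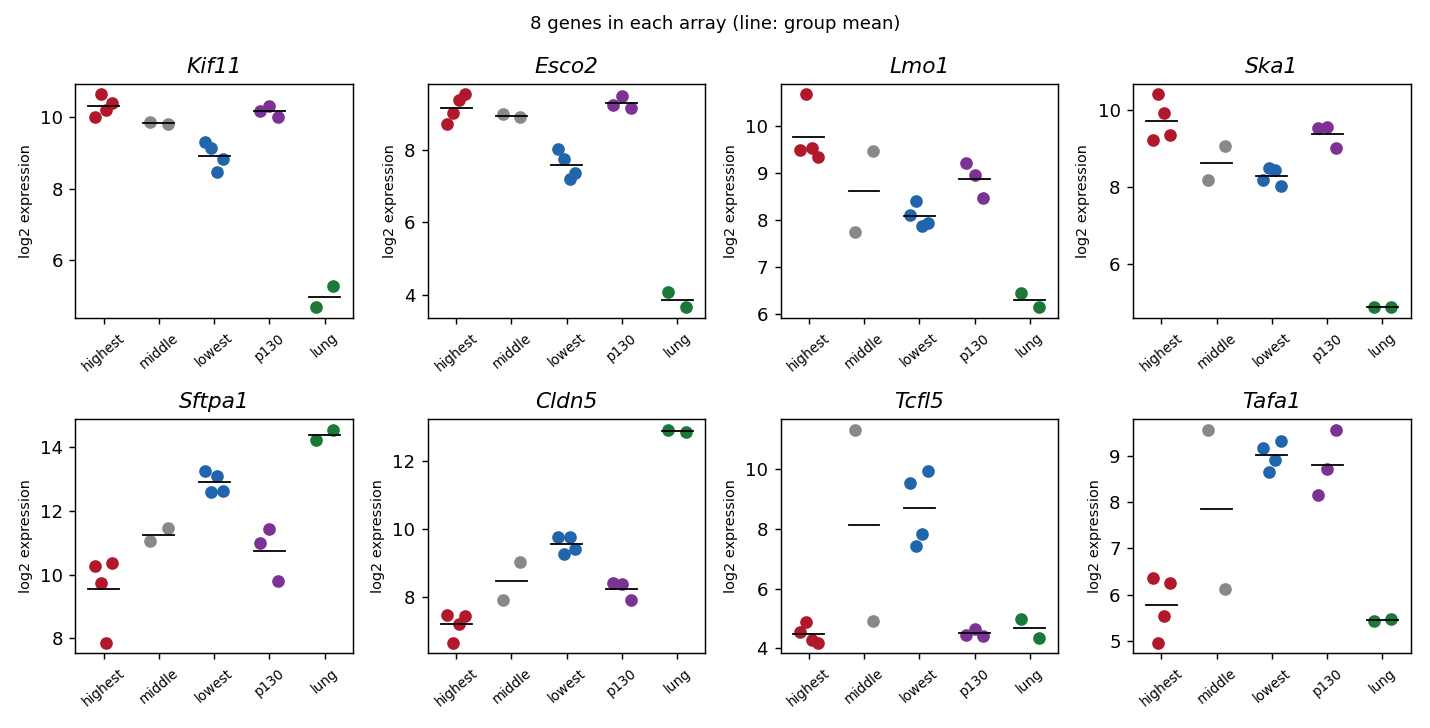
Log2 level of 8 genes in each array (points) with group means (lines), for Rb/p53 tumours of highest, middle and lowest score, Rb/p53/p130 tumours (p130) and normal lungs. Sftpa1 and Cldn5 are highest in lung, whereas Tcfl5 and Tafa1 are low in lung and in the highest-score tumours, and tumour 1, in the middle group, is at 11.32 for Tcfl5.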

How the data were processed

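The authors deposited log2 values from RMA (version not given in the sources used here), as the submitters' processing notes state. RMA equalizes arrays and so hides global shifts, and amplification favours RNA 3' ends. Of 45101 probe sets, 64 controls and 8 probe sets of the score genes were left out and 45029 tested. Of all non-control probe sets, 34945 had a single symbol in the platform table, 932 had several and 9160 had none; 34741 matched RefSeq (GRCm38.p6). A gene was read from its brightest probe set over 15 arrays. Differences were fitted with limma 3.58.1 (R 4.3.3; lmFit, eBayes) on 4 against 4 arrays and adjusted by Benjamini-Hochberg over probe sets at 0.05. Errors are SE of log2 differences unless marked SD. The fit was tested on simulated data. The score groups, members and 44 lists (715 of 760 entries measured) were chosen with earlier results of these data known. Genes named are the score genes, the 12 largest rises and falls among called, non-overlapping genes, up to 3 called members per list (or the smallest p), and a panel; other list members are named only as called, and the low-in-lung genes and others singled out were chosen after their values were seen. Figures used matplotlib 3.10.9 (Python 3.11.15).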

Additional observations from a re-analysis of the deposited data

Results flagged for a closer look

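A tumour far from the others was looked for in 259 groups. These were each named gene in the 4 high-score and in the 4 low-score tumours, and the score over all 10 Rb/p53 tumours. Of these, 15 were flagged, all of them groups of 4, and chance flags about 1 in 20 groups. Among the high-score tumours, tumour 7 stood apart upward for Lmo1 (10.669) and Rbl1 (10.4) and downward for Pcsk1 (10.056), Klf4 (7.5606) and Clu (9.458). Tumour 8 stood apart upward for E2f1 (11.732) and Neurod1 (6.4021). Tumour 9 was low for Rgs5 (10.302) and high for Chil1 (9.1394).

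Among the low-score tumours, tumour 10 was low for Fbxo5 (10.206), Myc (7.539) and Foxj1 (7.1509). Tumour 3 was high for Ncapg (8.4221), tumour 6 low for Pgam1 (10.972) and tumour 5 low for Ccne1 (9.0796).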

How the results depend on the processing

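The count of 732 genes (160 higher, 572 lower) ran from 42 to 642 with 1 tumour left out, from 0 to 164 higher and from 41 to 478 lower. It was 129 (41 and 88) for 3 against 3 tumours and 157 (16 and 141) for 5 against 5. It was 1145 (449 higher) with the score as a continuous covariate, 1485 (518 and 967) in 1 fit of all 15 arrays, 1188 (359 higher) with array weights and 441 (96 and 345) with the Gapdh covariate. Averaging probe sets gave 317 higher. A required change of at least 1, the exact rank-sum test and the resident lung covariate each gave 0 (241, 2687 and 911 at an unadjusted p under 0.05), 0 higher and 0 lower. The smallest adjusted rank-sum p was 0.229. Normalizing again, centring, a brightness filter, another prior, the actin covariate and leaving out probe sets _s, _x and _a kept the count within 1.5 times. Of the 79 named called genes, 6 kept their call in each fit that left out 1 tumour. The fit with the continuous score kept the call of 64 of the 79 and lost 15. E2f3, Mybl2, Foxm1, Mcm2 and Pcsk1, among others, passed in that fit and not in the main fit. The cause was not tested.

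Under the resident lung covariate, which does not overlap between the groups, 17 named genes changed sign: Lmo1 (-0.27), Rgs5 (-0.14), Ska1 (-0.36), Hc (0.16), Cxcl15 (0.32), Mme (0.31), Fbxo5 (-0.12), Cdkn3 (-0.072), E2f7 (-0.017), H2-Aa (0.32), H2-Ab1 (0.042), Zfp36 (0.047), Aqp5 (0.089), Cyp2f2 (0.64), Itgax (0.19), Ptprc (0.10) and Clu (0.51). Without probe sets _s, _x and _a Trim34a was at 0.22, Ska1 at 0.18 and Ptprc at -0.65. Averaging probe sets moved Trim34a (-1.32), Ska1 (0.90), Mme (-1.67), Rest (-0.58), Tcf21 (-1.19), Pdgfra (-0.79) and Marco (-1.03) by over 1.5 times with their calls kept. For 5 against 5 tumours Ndufa1 (-0.31), Ccng1 (-0.42), Dpysl5 (0.36), Fam183b (-0.99), Tppp3 (-0.85) and Tcf21 (-1.32) moved as far and lost their calls. No paired analysis was possible because the Rb/p53 tumours compared share no replicate number. With 4 arrays a group, probe sets near the lower quartile of the arrays limit what can be read.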

Other observations

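Of the 572 genes that fell, 44 had both normal lungs below all 4 low-score tumours. The same held for 4443 of all 18188 genes and for 107 of the 160 that rose, so it was uncommon among the falls. Among the 44, those with the largest falls, chosen after their values were seen, were Tcfl5, Tafa1, the protease Klk13 (-2.52 ± 0.46), the chaperone Clu (-2.49 ± 0.50), Eda2r (a log2 bound of -2.23) and the noncoding RNA Snhg11 (-2.40 ± 0.39). Klk13 was at 6.67 to 7.11 in the high-score tumours, 8.48 to 10.89 in the low-score tumours and 8.94 to 10.85 in the Rb/p53/p130 tumours, with lung at 7.55 and 7.74. Snhg11 was at 6.68 to 7.28 in the high-score and 8.39 to 10.45 in the low-score tumours. No other probe set of Clu was called. Eda2r was at 4.72 to 5.52 in the high-score tumours, at or near background, and at 5.92 to 8.75 in the low-score tumours.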
